A study of Mus musculus with 6 samples.

Results

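The miRNAs described here are 43 mature miRNAs of the imprinted Dlk1-Dio3 locus on mouse chromosome 12. They were chosen by name from a list of the locus and not by their values, but with earlier results of these data known. All 43 names were among the 1900 mature names of the count tables, and they come from 37 hairpins. The libraries are of small RNA of renal cortex, 1 per mouse, from 6 mice of the strain C57BL/6. In the diet-only group were 3 mice fed for 8 weeks on a diet rich in fat and cholesterol with bile salt (labelled HF/HC/HS/BA), which induces steatohepatitis. The other 3 mice, the tofogliflozin group, received that diet with tofogliflozin, an inhibitor of the glucose transporter SGLT2 of the proximal tubule, for the same 8 weeks. All 6 mice therefore ate the disease-inducing diet, no group on ordinary chow was analysed here, and the labels used here give neither age nor sex. The samples are bulk tissue, so fewer cells of a type and less miRNA per cell cannot be told apart.

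Imprinted genes are expressed from 1 parental copy. At this locus the protein-coding genes Dlk1, Rtl1 and Dio3 are expressed from the paternal chromosome, and the non-coding RNAs Meg3, Rian and Mirg, with the miRNAs that lie in and between them, from the maternal chromosome. Each hairpin can release a miRNA from its 5′ arm (5p) and from its 3′ arm (3p), and bases 2 to 8 of a mature miRNA, the seed, pair with target mRNAs. The locus is known for high miRNA expression in brain, placenta and embryonic tissue, and the miR-379 array within it has been studied in the diabetic kidney, where it was described as induced with endoplasmic reticulum stress.

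The mature sequences of the most abundant members and of those with the smallest p in each direction are shown first, with miR-376b-3p and its near-copy miR-376a-3p, which were at or near 0, added so that related pairs can be seen. They were taken from RefSeq (build GRCm38.p6), which held a mature sequence for 40 of the 43 members. Seeds are in capitals.
mmu-miR-127-3p: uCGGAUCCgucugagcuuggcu
mmu-miR-434-5p: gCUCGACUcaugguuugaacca
mmu-miR-434-3p: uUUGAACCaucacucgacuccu
mmu-miR-433-3p: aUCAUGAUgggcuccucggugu
mmu-miR-370-3p: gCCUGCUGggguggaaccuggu
mmu-miR-379-5p: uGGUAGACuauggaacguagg
mmu-miR-411-5p: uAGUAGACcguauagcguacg
mmu-miR-376b-3p: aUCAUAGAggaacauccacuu
mmu-miR-376a-3p: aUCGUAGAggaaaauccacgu
mmu-miR-300-3p: uAUGCAAGggcaagcucucuuc
mmu-miR-381-3p: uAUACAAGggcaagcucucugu
mmu-miR-382-5p: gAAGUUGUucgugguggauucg
mmu-miR-541-5p: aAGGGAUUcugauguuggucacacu
mmu-miR-409-3p: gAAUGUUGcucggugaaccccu
The 40 sequences had 40 different seeds, so no seed was held by more than 1 member, while 4 pairs of members had seeds that differed at 1 base. This holds for the member list only. Off the list, miR-1193-5p of the same array has the seed of miR-379-5p and had 0 counts. The 3p arms of miR-379 and miR-411, also off the list, share a seed with each other. Counting positions from 1 at the 5′ end and giving the base of the first-named miRNA first, miR-379-5p and miR-411-5p differed in the seed by G2A and miR-300-3p and miR-381-3p by G4A. The pair miR-376b-3p and miR-376a-3p differed by A4G, and miR-154-3p and miR-369-3p by C4A. Over the whole mature sequence, miR-300-3p and miR-381-3p differed at 3 of 22 bases, as did miR-376b-3p and miR-376a-3p at 3 of 21. Whether reads with errors passed between the members of such a pair was not tested.

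A further likeness lay in the first bases of the 5p arms of the miR-379 to miR-410 array. Of 34 such arms with a sequence, 14 (41.2%) had GGU at bases 2 to 4, as in miR-379-5p, against 2 of 15 (13.3%) in the part of the locus before miR-370 and 25 of 697 (3.6%) of all mouse 5p arms in the table, which include those of the locus. In kidney cortex most of these arms were near or at 0. Of the 14, 8 had no count in any library, miR-379-5p had 2817 counts over the 6 libraries, and miR-409-5p came next with 16. The 3p arms of the array also shared a start: 11 of 32 (34.4%) had AU at bases 2 and 3, against 0 of 15 before miR-370 and 45 of 709 (6.3%) of all 3p arms.

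The hairpins of the members fall into 3 stretches. On mm10, 10 hairpins with 14 members lie between Meg3 (chr12:109541001-109571726) and Rian (chr12:109603940-109661716), on the plus strand. Of these, 5 hairpins (miR-431, miR-433, miR-127, miR-434 and miR-136) lie opposite the coding exon of Rtl1 (chr12:109589193-109600330, minus strand), and so their miRNAs are fully complementary to the Rtl1 mRNA. miR-370 stands alone in an intron of Rian. The remaining 26 hairpins, with 28 members, form the miR-379 to miR-410 array of 34.7 kb, whose distal hairpins lie within Mirg (chr12:109729764-109749460). From miR-770, in Meg3, to the end of miR-410 the miRNA hairpins span 180.1 kb.

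Libraries held 8598518 to 29766679 counts, fewest in tofogliflozin replicate 2, so 3 counts, taken as the limit that a count of 0 allows, corresponded to 0.101 to 0.357 CPM (counts relative to library size, here scaled with TMM factors). Reads had no molecular identifiers in the tables, so such limits and all counting intervals cover counting error only. The tubule miRNAs miR-192-5p, miR-194-5p, miR-204-5p, miR-30a-5p and miR-10a-5p together ranged from 117219 to 138686 CPM, so miRNAs of the labelled tissue were abundant in every library. The largest part of that sum was miR-10a-5p, at 63100 to 72175 CPM. miR-204-5p was at 190 to 221 CPM on the diet alone and 289 to 393 CPM with tofogliflozin, without overlap, while the groups overlapped for the others of this list. Over all tested miRNAs, the groups did not overlap for 53 of 462 (11.5%). Of 7 miRNAs listed for neurons and endocrine cells, 6 were detected, led by miR-7a-5p and miR-128-3p, and miR-124-3p had 0 counts in all 6 libraries. That list summed to 6757 to 7062 CPM in diet-only and 5496 to 8456 CPM in tofogliflozin mice. Within it, miR-129-5p did not overlap, at 105 to 110 CPM in diet-only and 74.6 to 98.0 CPM in tofogliflozin mice. The groups overlapped for its other detected miRNAs. Among lists of other cells, summed smooth muscle and pericyte miRNAs were lowest in tofogliflozin replicate 2, at 25516 CPM against 40158 to 45658 CPM in the other 5 libraries. Nearly all of that sum was miR-143-3p. Of its other miRNAs, miR-145a-3p was also lowest in that library, at 114 CPM against 198 to 242 CPM. In contrast, miR-145a-5p was highest in the same library, at 338 CPM against 241 to 278 CPM. The hepatocyte miR-122-5p was also highest in tofogliflozin replicate 2, at 196 CPM against 31.0 to 59.8 CPM. So were the summed leukocyte miRNAs, at 111 CPM against 71.8 to 85.2 CPM, and the summed erythroid miRNAs, at 179 CPM against 35.5 to 125 CPM. The fibroblast and mesenchyme list overlapped between the groups, at 2089 to 2682 CPM on the diet alone and 1740 to 2789 CPM with tofogliflozin. The part of these lists in the results below was not tested.

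At least 1 count in at least 1 library was found for 34 of the 43 members (79.1%), against 1026 of all 1900 mature names (54.0%). Of the 70 other names between Dlk1 and Dio3, 24 (34.3%) had a count. The member list leaves out many second arms of hairpins that the 1900 names include, so these shares do not compare like with like. Only 18 members had a count in every library, and 15 members had at least 3 counts in every library. Between 22 and 29 members were seen per library, fewest in the shallowest. By hairpin, 32 of the 37 gave a count. The members with 0 counts throughout were miR-337-5p, miR-337-3p, miR-665-3p and miR-136-3p on the Meg3 side, and miR-667-3p, miR-376c-3p, miR-376a-3p, miR-154-3p and miR-377-3p in the array. Counts stood at 9 in all for miR-376b-3p and at 0 for its near-copy miR-376a-3p. Of the 34 detected members, 11 had under 10 counts over all libraries together. Members with counts in 1 group alone numbered 3 on each side, all with at most 4 counts in all: miR-380-3p, miR-758-3p and miR-369-3p on the diet alone, and miR-493-3p, miR-487b-3p and miR-539-5p with tofogliflozin. At so few counts a difference was not detectable.

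Together the 43 members held 22906 counts over the 6 libraries, and 1 miRNA took most of them. mmu-miR-127-3p, written miR-127-3p from here on like the others, lies opposite Rtl1 and is known to direct cleavage of its mRNA. It had 14145 counts (61.8%). miR-379-5p followed with 12.3%, miR-434-5p with 5.23%, miR-541-5p with 4.96%, miR-381-3p with 2.90% and miR-409-3p with 2.87%, and these 6 made up 90.0%. Mature lengths ran from 19 to 25 bases, so counts were compared without a length correction. Among the 462 miRNAs tested in this tissue miR-127-3p ranked 123 by mean CPM, miR-379-5p 187 and miR-541-5p 222.

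**Figure D1:**
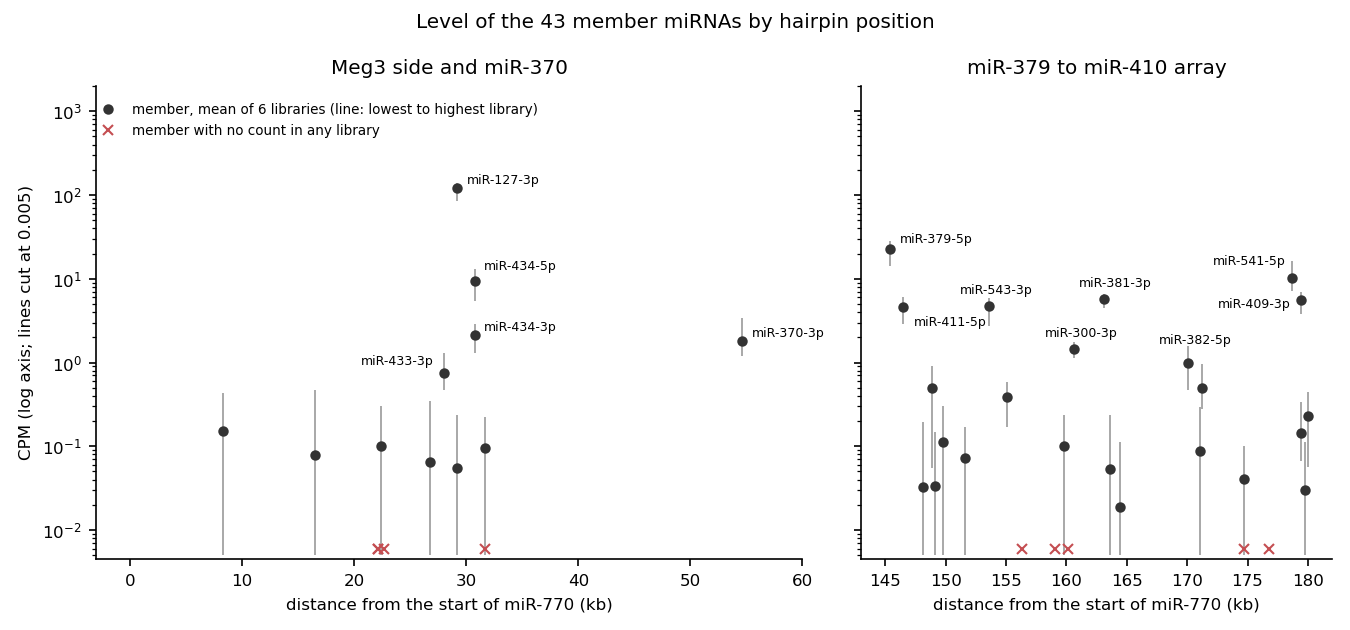
Mean CPM of each member over 6 libraries (log axis) against the distance of its hairpin from the start of miR-770 in kb, with lines from the lowest to the highest library and crosses for the 9 members with no count. miR-127-3p stands highest, at 121 CPM, and low or unseen members lie between well-detected ones in both stretches.

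Levels did not follow position smoothly. Within the stretch opposite Rtl1, miR-127-3p averaged 121 CPM while miR-433-3p, the next hairpin upstream, averaged 0.746 CPM, and miR-431-5p had 9 counts in all, 8 of them in tofogliflozin replicate 3. The hairpins opposite Rtl1 gave 68.5% of all member counts, those between Meg3 and Rtl1 0.175%, miR-370-3p 0.926%, the array before Mirg 21.4% and the members within Mirg 8.95%. For the stretches on either side of miR-370, group means lay within 1 SD of each other. The part before miR-370 held 68.5% ± 2.35 of member counts in diet-only mice and 69.5% ± 2.38 in tofogliflozin mice. The miR-379 to miR-410 array held 30.7% ± 2.25 and 29.4% ± 2.33 (SD, n = 3 mice each). Means differed by more than the diet-only SD for miR-370-3p, at 0.75% ± 0.099 and 1.07% ± 0.44. The same held for the array before Mirg, at 21.4% ± 0.66 and 20.2% ± 4.27. In both cases the difference was within the tofogliflozin SD. Tofogliflozin replicate 2 stood apart within the array. The hairpins from miR-379 to miR-539 gave 15.6% of its member counts, against 20.6% to 24.1% in the other 5 libraries.

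Arm use was strongly one-sided at most hairpins. Of 20 hairpins of the locus with both arms named and at least 30 counts, 9 gave mainly the 5p and 10 mainly the 3p arm, with an exact 95% interval of the share on 1 side of 50%. miR-329 was near even, with 16 counts from 5p and 14 from 3p (53.3% 5p, 34.3% to 71.7%). Of the 20, 13 gave over 95% of their counts from 1 arm. miR-127 had 4 counts from the 5p arm against 14145 from the 3p arm (0.0283% 5p, exact 95% interval 0.00770% to 0.0724%). miR-379 was the reverse, with 99.5% from the 5p arm (99.2% to 99.8%), and miR-541 gave 1135 counts from 5p and 0 from 3p. For miR-543 and miR-381 the 5p arm was at 0 of 553 and 0 of 664 counts, with exact 95% intervals reaching up to 0.665% and 0.554%. Both arms were well seen at miR-434, with 82.5% from 5p (80.4% to 84.4%), and at miR-411, with 85.2% (82.2% to 87.8%). Per library the 5p share of miR-434 was 88.3%, 79.4% and 73.9% in diet-only replicates 1 to 3 and 77.5%, 80.4% and 86.4% in tofogliflozin replicates 1 to 3, so the groups overlapped.

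Whether tofogliflozin altered arm use was tested over all hairpins with limma on log2 of the 5p over the 3p count. With 50 or more counts on average in the weaker arm, 0 of 75 hairpins passed an adjusted p of 0.05 (0%) and no hairpin of the locus was deep enough to enter. With 10 or more, 0 of 111 passed (0%), and 3 hairpins of the locus entered. The log2 ratio of 5p to 3p was higher with tofogliflozin by 0.02 ± 0.43 (SE) for miR-434, 0.50 ± 0.40 for miR-411 and 0.58 ± 0.55 for miR-1247. None was distinguishable from 0 (smallest adjusted p = 0.94 by limma).

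**Figure D2:**
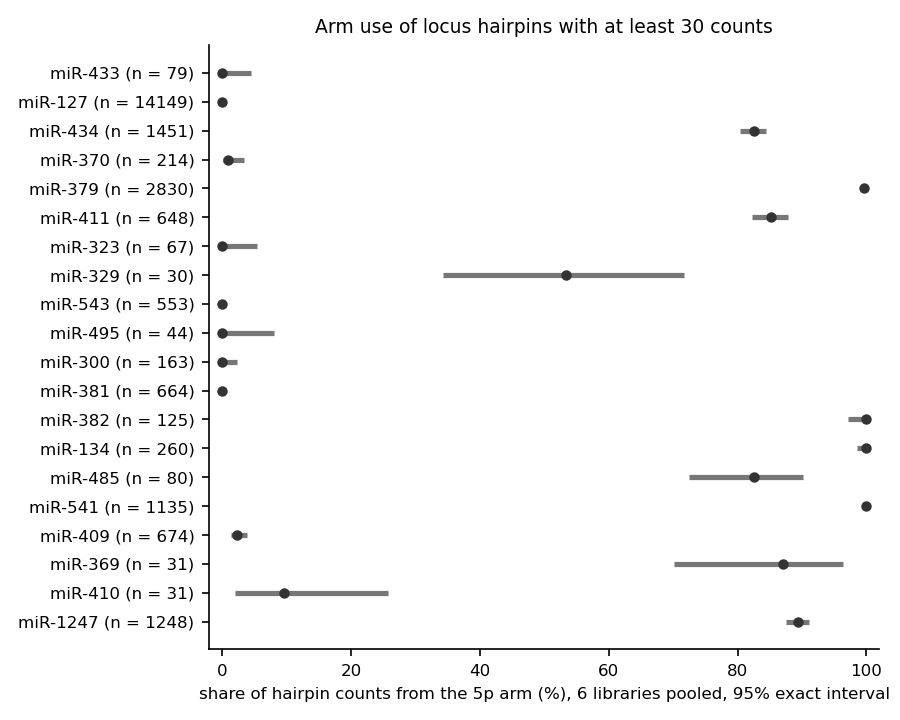
Share of counts from the 5p arm in percent for 20 hairpins of the locus with at least 30 counts, in locus order, with the 6 libraries pooled and exact 95% intervals as bars (counting error only). Most points sit near 0% or 100%, miR-329 is at 53.3%, and miR-434, miR-411, miR-485, miR-369 and miR-1247 lie between 80% and 90%.

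The main question of the series for these miRNAs was whether their levels differ with tofogliflozin. After the filter on low counts, 14 of the 43 members could be tested, 20 detected members could not (2 to 66 counts in all), and 9 had no count. In edgeR's quasi-likelihood test 0 of the 14 passed an adjusted p of 0.05, with 0 of 462 (0%) over all tested miRNAs. At an unadjusted p under 0.05 there were also 0 of the 14, against 20 of 462 (4.33%). DESeq2 and limma-voom called 0 of the 14 as well, and over all miRNAs DESeq2 called 2 and limma-voom 0. The smallest adjusted p among members was 0.824, shared by miR-370-3p, miR-382-5p, miR-433-3p and miR-381-3p. The interval of each of the 14 log2 fold changes included 0.

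Log2 fold changes, tofogliflozin minus diet only, ran from -0.76 to 0.75 over the 14. Above 0 were 9 of the 14 and below 0 were 5, with a median of 0.27, beside 250 of 462 (54.1%) above 0 and a median of 0.03 over all tested miRNAs. The members' median was 0.07 without diet-only replicate 2 and 0.15 without diet-only replicate 3. In both of these fits 15 members passed the filter, so the set of members also differed. The median was 0.12 over the 4 tested members before miR-370, 2 of them above 0, and 0.28 over the 9 of the array, 6 of them above 0. The difference between the stretches was not tested.

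**Figure D3:**
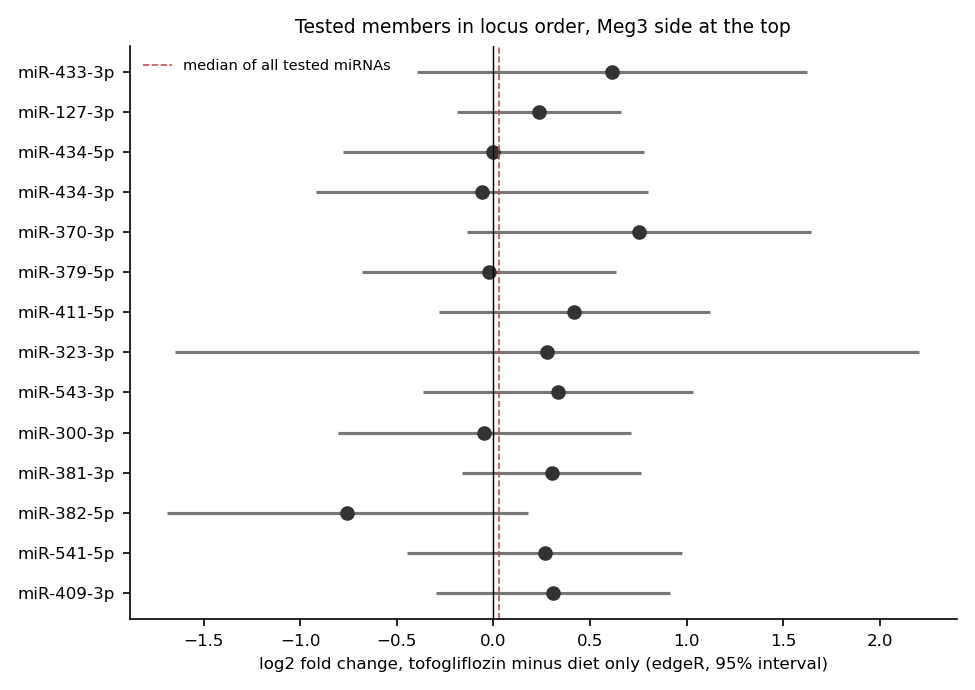
Log2 fold change (tofogliflozin minus diet only, edgeR) with its 95% interval for the 14 tested members in locus order, Meg3 side at the top, with a dashed line at the median of all 462 tested miRNAs. Every interval includes 0, from the narrow one of miR-127-3p to that of miR-323-3p, which reaches from -1.65 to 2.20.

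miR-127-3p (hairpin chr12:109592846-109592915) stood at 129, 85.8 and 119.6 CPM in diet-only replicates 1 to 3 and at 138, 138 and 117 CPM in tofogliflozin replicates 1 to 3. The lowest value was that of diet-only replicate 2, and tofogliflozin replicate 3 lay below 2 of the diet-only mice, so the groups overlapped. Means were 111 ± 22.6 and 131 ± 11.99 CPM (SD, n = 3 each). This gave a log2 fold change of 0.24 ± 0.18 (SE; 95% interval -0.19 to 0.66; adjusted p = 0.874 by edgeR), or 0.07 without diet-only replicate 2. Its counts, 1161 to 3844 per library, were the deepest of the cluster.

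Also opposite Rtl1, miR-434 (chr12:109594506-109594599) gave 11.9, 8.56 and 8.10 CPM of its 5p arm on the diet alone and 9.74, 5.35 and 13.1 CPM with tofogliflozin. The highest and the lowest of the 6 values were both in the tofogliflozin group. Means of miR-434-5p were 9.53 ± 2.09 and 9.41 ± 3.90 CPM (SD, n = 3 each), with an interval of the log2 fold change from -0.78 to 0.78. Leaving out 1 library put that change between -0.33 (tofogliflozin replicate 3) and 0.24 (tofogliflozin replicate 2). The 3p arm was at 1.57, 2.22 and 2.86 CPM and then at 2.83, 1.31 and 2.06 CPM, and again tofogliflozin replicate 2 was lowest. miR-434-3p had a log2 fold change of -0.06 ± 0.37 (SE), which lay between -0.36 (tofogliflozin replicate 1 left out) and 0.14 (diet-only replicate 3 left out).

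miR-433-3p (chr12:109591715-109591838), described elsewhere as profibrotic in kidney, was seen with only 11 to 19 counts per library. It stood at 0.469, 0.667 and 0.593 CPM on the diet alone and at 0.623, 1.31 and 0.816 CPM with tofogliflozin. Tofogliflozin replicate 2 was the highest of all 6, on 11 counts, and replicate 1 lay below a diet-only mouse. The log2 fold change was 0.61 ± 0.43 (SE; -0.40 to 1.62), and 0.32 without tofogliflozin replicate 2.

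miR-370-3p (chr12:109618258-109618336), known in liver for lowering the fatty acid oxidation enzyme Cpt1a, had the largest log2 fold change of the 14. Its levels were 1.64, 1.22 and 1.19 CPM on the diet alone and 3.40, 1.43 and 1.93 CPM with tofogliflozin, from 12 to 60 counts. Tofogliflozin replicate 1 was well above the rest, and replicate 2 lay below diet-only replicate 1. Means were 1.35 ± 0.253 and 2.25 ± 1.02 CPM (SD, n = 3 each). The log2 fold change was 0.75 ± 0.38 (SE; -0.14 to 1.64; adjusted p = 0.824 by edgeR). Without tofogliflozin replicate 1 it was 0.32.

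In the array, miR-379-5p (chr12:109709060-109709125) was at 28.1, 19.3 and 20.7 CPM on the diet alone and at 24.2, 14.2 and 28.5 CPM with tofogliflozin. Tofogliflozin mice held both the highest and the lowest value. The means, 22.7 ± 4.74 and 22.3 ± 7.36 CPM (SD, n = 3 each), gave a log2 fold change of -0.02 ± 0.28 (SE), with an interval from -0.68 to 0.64. It lay between -0.25 (tofogliflozin replicate 3 left out) and 0.19 (tofogliflozin replicate 2 left out). Its seed relative miR-411-5p, whose hairpin (chr12:109710175-109710256) follows next in the array, was at 5.53, 2.89 and 3.26 CPM and at 5.21, 4.40 and 6.01 CPM. Diet-only replicate 1 lay within the tofogliflozin range and the other diet-only mice below it. The log2 fold change of miR-411-5p was 0.42 ± 0.30 (SE; -0.28 to 1.12). It was 0.24 without diet-only replicate 2 and 0.75 without diet-only replicate 1 (adjusted p = 0.963 by edgeR).

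The near-copies miR-300-3p (chr12:109724313-109724391) and miR-381-3p (chr12:109726822-109726896) come from separate hairpins of the array. miR-381-3p was at 5.80, 4.50 and 4.99 CPM on the diet alone and at 6.63, 6.31 and 5.97 CPM with tofogliflozin. It was the 1 member of the 14 whose groups did not overlap, with the tofogliflozin mice higher, where 28 of 462 (6.06%) of all tested miRNAs were higher without overlap. Lower without overlap were 0 of the 14 members against 25 of 462 (5.41%), and in either direction 53 of 462 (11.5%). Means were 5.10 ± 0.654 and 6.30 ± 0.331 CPM (SD, n = 3 each), and the log2 fold change was 0.30 ± 0.20 (SE; -0.16 to 0.77; adjusted p = 0.824 by edgeR). miR-300-3p was at 1.139, 1.45 and 1.78 CPM and at 1.36, 1.67 and 1.24 CPM, so its groups lay over each other (log2 fold change -0.05 ± 0.32, SE). That change was -0.22 when diet-only replicate 1 was left out and 0.10 when diet-only replicate 3 was.

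miR-382-5p (chr12:109733771-109733846, in an intron of Mirg), described as raised in models of renal fibrosis, had the lowest log2 fold change of the 14. Its levels were 1.31, 0.889 and 1.58 CPM on the diet alone and 0.906, 0.476 and 0.773 CPM with tofogliflozin, from 4 to 39 counts. Diet-only replicate 2 lay just below tofogliflozin replicate 1, and otherwise the tofogliflozin mice were lower. The log2 fold change was -0.76 ± 0.40 (SE; -1.69 to 0.18; adjusted p = 0.824 by edgeR), and -0.59 without diet-only replicate 3. With 4 counts in tofogliflozin replicate 2, the depth limits this value.

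Also within Mirg, miR-541-5p (chr12:109742409-109742498) was at 10.1, 10.7 and 7.21 CPM on the diet alone and at 9.86, 16.3 and 7.90 CPM with tofogliflozin. Tofogliflozin replicate 2 alone lay above the diet-only range, so that the log2 fold change of 0.26 ± 0.31 (SE) turned to -0.10 without it. Leaving out diet-only replicate 3 gave 0.09, and leaving out tofogliflozin replicate 3 gave 0.45. miR-409-3p (chr12:109743158-109743236) was at 6.63, 3.84 and 4.49 CPM and at 5.66, 7.02 and 6.05 CPM, a log2 fold change of 0.31 ± 0.26 (SE; -0.30 to 0.92). It was 0.15 without diet-only replicate 2, the lowest of the 6, 0.20 without tofogliflozin replicate 2, the highest, and 0.56 without diet-only replicate 1.

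The other tested members were miR-543-3p, with 2.72 to 5.95 CPM and a log2 fold change of 0.34 ± 0.30 (SE), and miR-323-3p. For miR-543-3p the log2 fold change was 0.10 without diet-only replicate 2 and 0.59 without diet-only replicate 3. miR-323-3p had 1 count each in diet-only replicate 2 and tofogliflozin replicate 2 and up to 27 in the others, and its log2 fold change of 0.28 ± 0.83 turned to -0.20 without diet-only replicate 2 and to -0.04 without tofogliflozin replicate 1, and was 1.29 without diet-only replicate 1. Just short of the filter, miR-485-5p had 29, 5 and 8 counts in diet-only and 7, 3 and 14 in tofogliflozin mice, or 0.278 to 0.972 CPM. miR-495-3p had 3 to 12 and miR-410-3p 1 to 8 counts per library.

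**Figure D4:**
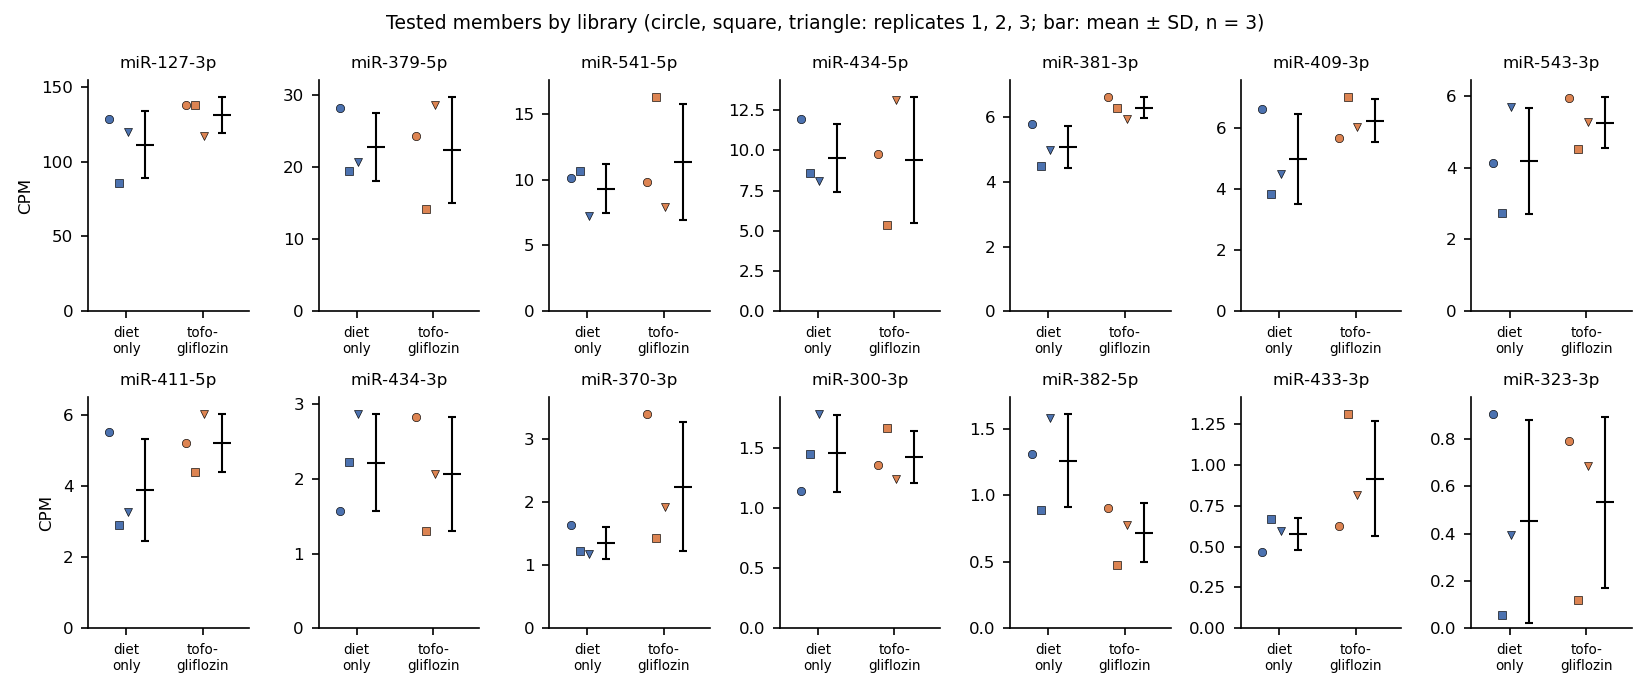
CPM of the 14 tested members in each library (circle, square and triangle for replicates 1, 2 and 3), with the mean and SD of 3 mice beside them, in order of mean level. The groups overlap in every panel except that of miR-381-3p, where the tofogliflozin mice lie at 5.97 to 6.63 CPM and the diet-only mice at 4.50 to 5.80 CPM.

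The cluster as a whole made up 0.0142% to 0.0214% of the counts of a library. Summed over the 43 members the level was 210 CPM, 147 CPM and 185 CPM in diet-only replicates 1 to 3 and 218 CPM, 205 CPM and 200.3 CPM in tofogliflozin replicates 1 to 3. Diet-only replicates 2 and 3 were below, and replicate 1 was within, the tofogliflozin range. Means were 181 ± 31.9 and 208 ± 9.04 CPM (SD, n = 3 each), and the diet-only mean was 198 CPM without diet-only replicate 2. Without miR-127-3p, the means of the summed levels were 69.5 ± 10.7 and 76.3 ± 8.66 CPM (SD, n = 3 each).

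Members did not move as 1 block across the mice. In diet-only replicate 2, 6 of the 14 tested members had their lowest level of the 6 libraries and 0 had their highest, where 13.6% and 14.3% of all tested miRNAs did. Tofogliflozin replicate 2 was split, being lowest for 4 members (miR-434-5p, miR-434-3p, miR-379-5p and miR-382-5p) and highest for 3 (miR-433-3p, miR-541-5p and miR-409-3p). In the same library 29.7% of all tested miRNAs were at their lowest and 37.0% at their highest, and it was the library with the fewest counts and the marker values given above. Within-group coefficients of variation ran from 9.09% for miR-381-3p and 14.9% for miR-127-3p to 41.4% for miR-370-3p and 80.5% for miR-323-3p.

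**Figure D5:**
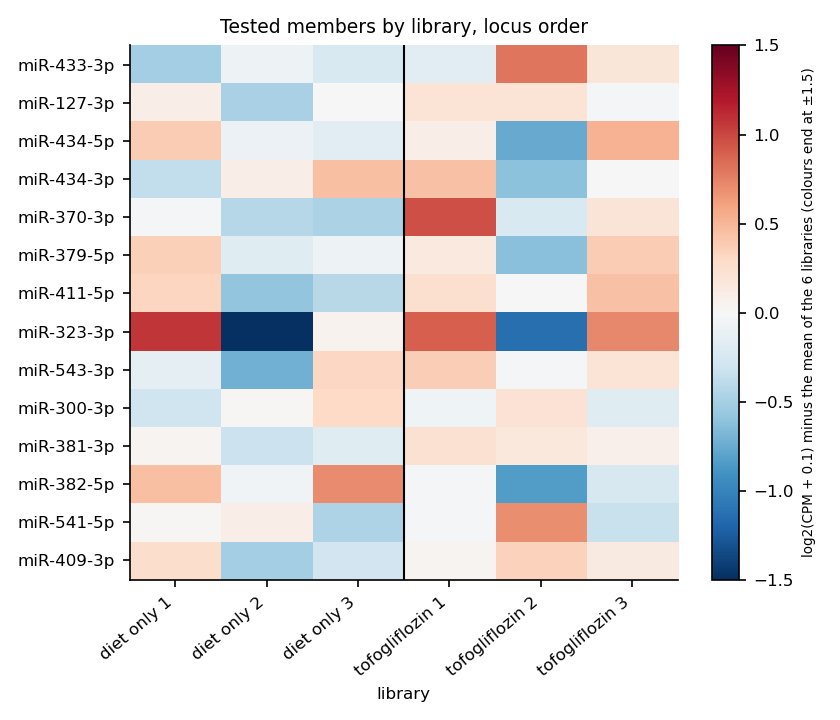
Colour map of log2(CPM + 0.1) of each tested member minus its mean over the 6 libraries, with members in locus order and libraries in columns (red higher, blue lower, colours ending at 1.5 either way). Diet-only replicate 2 is pale or blue in most rows, and tofogliflozin replicate 2 mixes blue rows, such as miR-434-5p and miR-379-5p, with red ones, such as miR-433-3p and miR-541-5p.

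Other miRNAs of the locus, not on the list of members, numbered 70 names between Dlk1 and Dio3, of which 24 (34.3%) had a count and 4 could be tested. Those 4 were miR-1247-5p, miR-134-5p, miR-1247-3p and miR-411-3p, with 0 past the threshold, 2 above and 2 below 0. miR-134-5p, a regulator of dendritic spines known from neurons, averaged 2.21 ± 0.497 and 2.07 ± 0.460 CPM (SD over 3 mice each), with overlapping groups and a log2 fold change of -0.06 ± 0.30 (SE). miR-1247-5p comes from the far end of the locus, in an exon of the Dio3 antisense transcript Dio3os (hairpin chr12:110278048-110278129, minus strand), outside the maternal miRNA array. It was at 8.58, 5.003 and 6.07 CPM on the diet alone and at 15.5, 9.76 and 12.5 CPM with tofogliflozin, the groups not overlapping. Its log2 fold change was 0.94 ± 0.27 (SE; adjusted p = 0.824 by edgeR), the p of rank 4 among the 462. Its other arm, miR-1247-3p, was at 0.44 ± 0.49, and miR-411-3p at -0.03 ± 0.53. Of miRNAs at other imprinted loci, miR-335-5p, miR-335-3p (both in Mest) and miR-296-3p (Gnas locus) were deep enough to test, with log2 fold changes of -0.12 ± 0.43, -0.22 ± 0.17 and -0.01 ± 0.53 (SE) and 0 past the threshold in edgeR. Of these, miR-335-3p was lower without overlap, at 10.9 to 12.2 CPM in diet-only and 9.40 to 10.8 CPM in tofogliflozin mice. Over all tested miRNAs, 25 of 462 (5.41%) were lower without overlap.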

How the data were processed

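Small RNA of renal cortex from 6 mice, 3 per group, was sequenced. The authors deposited whole-number read counts per mature miRNA and precursor, without normalization. Per the submitters' processing notes, cutadapt 1.14 and mm10 were used. For the aligner, the counter and the miRBase release, nothing is given in the sources used here. Each table had 2033 rows. Where a mature name had several rows, identical ones entered once and others were added up (0 members had repeated rows). Differences were tested over the whole table in R 4.3.3 by edgeR 4.0.16 (quasi-likelihood test, TMM, default filterByExpr with a smallest count of 10, Benjamini-Hochberg, threshold 0.05, 2-sided), and arm use with limma 3.58.1 (pseudocount 1). SE is the absolute log2 fold change over the square root of F. The tests were tested on simulated data. Hairpins were placed with RefSeq GRCm38.p6 and GENCODE M21, whose build is that of mm10. Named in full were the 6 most abundant members and, per direction, the 4 with the smallest p. Members and lists were chosen with earlier results of these data known. Alternatives were other size factors, filters, row merging, leaving out each library, a block for the replicate number, robust estimation, limma-voom and DESeq2 1.42.0. The series text gives 3 mice per group, and p-values judge the difference between groups against the variation between these libraries.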

Additional observations from a re-analysis of the deposited data

How the results depend on the processing

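Of 213 values of tested members under alternatives, 13 changed sign and 0 passed the threshold. Members called stayed at 0 under every alternative run, and hairpins called for arm use at 0. Over all miRNAs the count of calls rose from 0 to 10 with no filter on low counts (1026 tested) and to 2 with DESeq2, and was 0 each time 1 library was dropped. Detected members numbered 18 when a count in each of the 6 libraries was asked for and 15 with at least 3 counts in each, since both are stricter. Dropping 1 library moved the members' median to between 0.0747 (diet-only replicate 2 dropped, 15 members) and 0.32 (diet-only replicate 1 dropped, 14 members). The filter was applied anew in each fit, so the members tested could change. miR-434-3p turned to 0.0079 with limma-voom and miR-434-5p to 0.0090 with upper quartile factors. With a library left out, these members crossed 0: miR-300-3p (-0.22 to 0.10), miR-323-3p (-0.20 to 1.29), miR-379-5p (-0.25 to 0.19), miR-434-3p (-0.36 to 0.14), miR-434-5p (-0.33 to 0.24) and miR-541-5p (-0.10 to 0.45). The cause was not tested. When diet-only replicate 1 or tofogliflozin replicate 2 was dropped, 1 member had an unadjusted edgeR p under 0.05, miR-411-5p in the first case and miR-370-3p in the other. Mice sharing a number showed no common deviation (r = -0.02, -0.11 and -0.17 over 462 miRNAs). With the replicate number as a block, 0 members and 0 miRNAs were called, and the members' median was 0.28. Members with under 20 counts in a library are limited by depth.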
